A study of Mus musculus with 4 samples.

Results

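Antisense RNA genes are annotated genes whose transcripts run on the DNA strand opposite to another gene, most often a protein-coding one, here called the sense partner. They were taken as all genes of type antisense in the mouse annotation GENCODE M21, and each transcript's deposited estimated counts were summed to its gene. The annotation holds 2959 such genes among 55536, and 2634 of them were listed in the files among 48858 genes. At least 1 count fell on 1587 of these, and 335 had enough counts to be tested, out of 12863 tested genes of all types. The cells were naive CD4 T cells, sorted as TCRb+ CD4+ CD25- CD62Lhi CD44low, in 2 libraries from wild-type (WT) and 2 from double-knockout (DKO) mice. Both groups carried loxP-flanked alleles of Btg1 and Btg2 (Btg1f/f Btg2f/f). The WT mice were littermate controls, and the DKO mice also carried CD4-Cre, a recombinase driven by Cd4 regulatory sequences that is active throughout the T cell lineage, including CD8 T cells. No treatment is labelled, and nothing used here gives the age of the mice. RNA was depleted of rRNA and sequenced as stranded total RNA, so that transcripts without a poly(A) tail could also be read.

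Antisense transcripts are known to act in several ways on the gene they overlap. Transcription across a promoter can hinder or open it, the RNA can recruit chromatin regulators, and antisense and sense RNA can pair into double-stranded RNA that cellular sensors and editing enzymes recognise. Many antisense RNAs are kept at low levels in the nucleus, where the RNA exosome, a multi-subunit RNA-degrading complex, removes them. BTG1 and BTG2, the proteins deleted here, bind the CCR4-NOT deadenylase, which shortens poly(A) tails of cytoplasmic mRNA and so starts its decay. The question for these genes was whether their RNA, alone or relative to the sense partner, differed between WT and DKO cells.

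Of the 2959 antisense genes, 2731 overlapped a protein-coding gene on the other strand and 228 did not. Most lay wholly inside the sense gene (1610), 608 overlapped it head-to-head at the starts, 416 overlapped it tail-to-tail at the ends, and 97 held the whole sense gene within them. Exons of the members and partners shared bases in 1626 pairs and shared none in 1105. In those 1626 pairs a read from the shared bases fits both RNAs unless its strand is used. The library kit keeps strand, but the strand setting of the authors' quantification is not given in the sources used here, so reads of overlapping antisense and sense RNA cannot be told apart. The same holds for unspliced sense RNA that covers an antisense exon within an intron.

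The sequences show how much of an antisense RNA can be its own. As a measure, every 31-base word of each antisense transcript was looked up, on either strand, in the transcripts of all other genes. Gm20402, which lies within Foxo1, the gene of a transcription factor that keeps T cells resting, had 93.6% of its words in Foxo1 transcripts, and only 42 of its 657 words were found nowhere else. Gm37401, over the end of the small GTPase gene Rhoa, had 92.7% in Rhoa and 23 of 317 words of its own. Gm42893, over the centriole assembly gene Sass6, had 98.2% in Sass6 and 25 of 1472 of its own. Below are 30 bases from the middle of the longest stretch that each of these transcripts shares with no other, written 5′ to 3′ in the RNA's sense as DNA letters. They are transcript bases 83 to 112 for Gm20402, 12 to 41 for Gm37401 and 1354 to 1383 for Gm42893, from the GENCODE M21 transcripts on GRCm38.
Gm20402: gtagatctgcgacaggcaggctcaggttgc
Gm37401: tttttttttttttctggggtagatatattt
Gm42893: ctcactctgtagaccagttccaggacagct
The stretch of Gm37401 opens with a run of T, and nearly everything else in these 3 RNAs is shared with the transcripts of the sense gene.

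The snoRNA host gene Snhg9 stands at the other end of that scale. It runs opposite Rps2, the gene of a small ribosomal subunit protein, and its exons share 14 bases with Rps2 exons at chr17:24719952-24719965 (GRCm38). The pair of strands is shown because this is the whole stretch that the exons of both genes share.
Snhg9, minus strand: gccgaagccgcgcc
Rps2, plus strand: ggcgcggcttcggc
No 31-base word of Snhg9 lay in any other gene's transcripts, and the 14 shared bases are the first of the Snhg9 transcript.

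Promoter sequence could be read for some members from RefSeq windows of 300 bases, 250 before and 50 after an annotated start (GRCm38.p6). A window matched 996 of the 2634 listed members, 147 of the 335 tested and 10 of the 31 named below. Shown are the windows of 3 members to which the results return, with a CCAAT box (CCAAT, which reads ATTGG on the other strand) and a GC box (GGGCGG, which reads CCGCCC there) in capitals.
2900060B14Rik, chr1:118459216-118459515, minus strand: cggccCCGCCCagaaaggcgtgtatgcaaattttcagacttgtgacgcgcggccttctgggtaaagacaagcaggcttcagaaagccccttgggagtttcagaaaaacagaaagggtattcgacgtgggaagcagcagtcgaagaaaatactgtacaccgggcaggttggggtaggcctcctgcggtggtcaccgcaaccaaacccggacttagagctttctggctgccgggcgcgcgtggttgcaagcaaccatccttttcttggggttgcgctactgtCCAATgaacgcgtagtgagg
Gm13546, chr2:58163724-58164023, plus strand: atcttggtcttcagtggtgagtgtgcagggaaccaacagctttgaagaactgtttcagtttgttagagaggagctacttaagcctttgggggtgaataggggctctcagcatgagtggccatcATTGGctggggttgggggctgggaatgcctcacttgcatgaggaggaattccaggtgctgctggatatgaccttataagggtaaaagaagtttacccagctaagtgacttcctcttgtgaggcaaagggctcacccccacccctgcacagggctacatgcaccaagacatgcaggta
Tug1, chr11:3648765-3649064, minus strand: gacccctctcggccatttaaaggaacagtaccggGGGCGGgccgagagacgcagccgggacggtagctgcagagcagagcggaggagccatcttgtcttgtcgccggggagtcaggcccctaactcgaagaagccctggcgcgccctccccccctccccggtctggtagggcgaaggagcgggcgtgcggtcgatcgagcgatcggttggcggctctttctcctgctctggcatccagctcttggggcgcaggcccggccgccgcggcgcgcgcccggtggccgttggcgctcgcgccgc
The windows of 2900060B14Rik and Tug1 are rich in CpG, with 20 and 37 CpG dinucleotides and a GC content of 56.0% and 71.3%. The window of Gm13546, which starts inside Cytip, has no CpG and 51.3% GC. The RefSeq start of Tug1 lies 859 bases inside the GENCODE gene, so its window covers transcribed bases of the longer GENCODE model. The TATA box (TATAAA), the CCAAT box, the GC box and an ETS factor motif (CCGGAAG) were searched on both strands, and none of them contains another. They occurred in 8.16, 32, 38.1 and 10.9% of the windows of tested members, against 13.6, 37.4, 35.7 and 8.86% of all 32851 windows. Members that were not tested for want of counts held the GC box in 24.7% of 849 windows and had a median of 5 CpG, against 8 in tested members and 7 over all windows. The highest CpG content lay in the 10 tested members whose start was within 500 bases of the sense start (median 28 CpG, 65.8% GC). These matches describe the letters of the windows only.

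Total estimated counts were 14970076 and 13889894 in WT and 16567226 and 17827631 in DKO, so that 3 counts, taken as the detection floor, correspond to 0.168 to 0.216 CPM (counts scaled to a fixed total per library). Levels per library are given below as CPM scaled with TMM factors. Btg1 fell from 532 and 472 CPM in WT to 6.09 and 5.80 CPM in DKO, and Btg2 from 93.4 and 92.5 to 0.296 and 0.325 CPM. The log2 fold changes were −6.40 (SE 0.19) and −8.18 (SE 0.21), with adjusted p = 1.45e-06 and 8.91e-07 by edgeR. No antisense gene of the annotation overlaps Btg1 or Btg2. All 14 markers of naive CD4 T cells were detected and summed to between 3778 and 4563 CPM per library. The 6 B cell markers summed to 5.19 to 8.67 CPM and the 6 myeloid markers to 9.83 to 12.7 CPM, and the 4 regulatory T cell markers (Foxp3, Ikzf2, Il2ra and Nrp1) to 9.45 and 9.63 CPM in WT but 25 and 41.1 CPM in DKO. The part of these cells in the results below was not tested. In bulk RNA, fewer cells of a type and less RNA per cell cannot be told apart. With 2 libraries against 2, the smallest two-sided p of an exact permutation test is 0.33, and SDs are over n = 2. The p-values for levels therefore come from models fitted across all genes. Those for antisense/sense ratios come from a model fitted across the tested pairs only.

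Antisense RNA was a thin layer of the transcriptome in all 4 libraries. Antisense genes took 0.132 and 0.0823% of the estimated counts in WT against 0.0893 and 0.129% in DKO, or 0.107 ± 0.0352% and 0.109 ± 0.0281% (SD, n = 2 each). The groups overlapped, and the difference of 0.00193 percentage points was smaller than the spread within either group. It was −0.0229 without WT replicate 2 and −0.0179 without DKO replicate 2. As a share of protein-coding plus antisense counts it was −0.0532 percentage points, so its sign changed with these choices. Protein-coding genes took 38.9 and 35.7% of the counts in WT against 44.7 and 48.9% in DKO, so the last denominator was larger in DKO. The number of members with at least 1 count was 1198 and 924 in WT against 1092 and 1279 in DKO. Those with at least 10 counts numbered 394 and 186 against 260 and 431. Counts were concentrated in few members: the top 3 held 16.3% and the top 100 held 59.4% of all antisense counts.

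No antisense gene passed the test between genotypes. By edgeR (quasi-likelihood, adjusted over all genes by Benjamini-Hochberg), 0 of 335 were called, where 0.124% of all tested genes were called (16 of 12863, 0.0544% higher and 0.07% lower in DKO). The lowest adjusted p among members was 0.139, for 2900060B14Rik. At an unadjusted p under 0.05, 4 members were higher in DKO (1.19%) and 8 lower (2.39%), against 3.82 and 4.35% of all genes. DESeq2 called 2 members, Gm15564 (adjusted p = 0.00103) and 2900060B14Rik (0.0135), both lower in DKO, and limma on log2 TPM called none. The DESeq2 calls were 0.597% of the members tested, against 1.46% of all genes. The libraries of the groups did not overlap for 26 members higher (7.76%) and 59 lower (17.6%) in DKO, against 19.8 and 18.8% of all genes. Among 463 tested genes of long intergenic RNAs these shares were 9.94 and 17.9%, so they were not particular to the members.

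The median log2 fold change of the 335 members was −0.31 (interquartile range −0.63 to 0.13), with 231 below 0, against −0.01 over all tested genes and 0.02 over protein-coding genes. This lower median rested on which libraries were compared. Without WT replicate 1 the median turned to 0.37 (431 members tested) and it was 0.25 over the 332 of the original members that still passed the filter. It was −0.59 without WT replicate 2, −0.13 without DKO replicate 1 and −0.59 without DKO replicate 2. The per-library levels show the same: relative to each member's own mean, the median deviation on the log2 scale was 0.39 and −0.23 in the WT libraries and −0.20 and 0.10 in the DKO libraries. WT replicate 1 held the highest value of 190 of the 335 members, and WT replicate 2 and DKO replicate 1 held the lowest of 134 and 119. The spread between libraries of one genotype was therefore larger than the difference between genotypes.

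Other RNA classes moved with the antisense genes across libraries. Long intergenic RNAs (lincRNA) deviated by 0.39, −0.28, −0.22 and 0.08 in the same order of libraries. Protein-coding genes, most of the genes scaled by TMM, stayed between −0.02 and 0.02, a range that the scaling largely sets. Genes annotated as sense-intronic, which lie within introns on the coding strand, took 0.0358 and 0.0165% of the counts in WT against 0.0191 and 0.0260% in DKO. Transcripts annotated as retained introns took 1.92 and 1.32% against 1.45 and 1.84%. In these 3 sets of values WT replicate 1 was highest and WT replicate 2 lowest, but other measures of the same classes ordered the libraries differently. The lincRNA share of all counts was 7.38 and 7.74% in WT against 7.69 and 7.42% in DKO, so WT replicate 1 was the lowest. Retained-intron transcripts had 6.80 and 4.65 counts per 100 counts of coding transcripts in WT against 4.36 and 4.91 in DKO, so DKO replicate 1 was the lowest. The median fold change was −0.27 for 463 lincRNA genes and −0.32 for 69 sense-intronic genes, close to the −0.31 of the antisense genes. The part of intronic or unprocessed RNA in the antisense values was not tested.

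**Figure D1:**
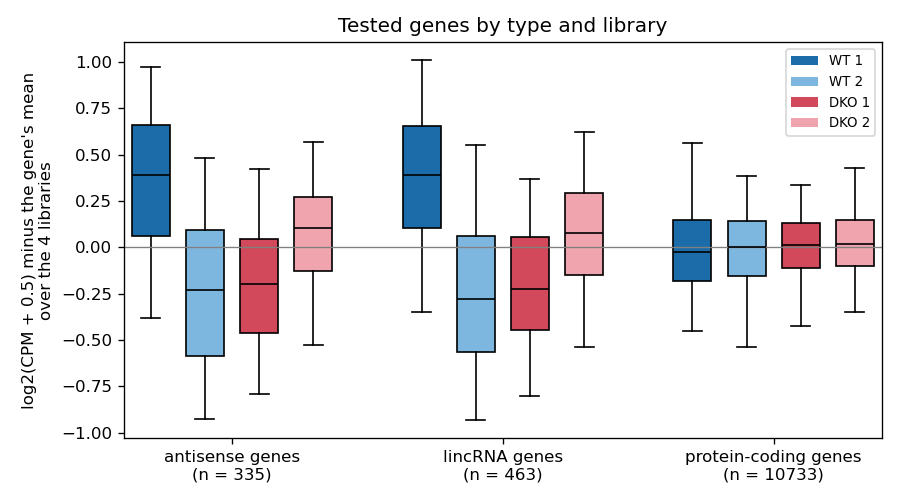
Each box shows, for one library, the log2(CPM + 0.5) of tested genes minus the gene's own mean over the 4 libraries, for 335 antisense, 463 lincRNA and 10733 protein-coding genes; the line is the median, the box the middle 50% and the whiskers the 5th to 95th percentiles. Antisense and lincRNA genes sit highest in WT replicate 1 (medians 0.39 and 0.39) and below 0 in WT replicate 2 and DKO replicate 1, while protein-coding medians lie between −0.02 and 0.02.

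The median fold change was below 0 in most positions relative to the sense gene. It was −0.35 for 160 tested members inside the sense gene, −0.22 for 80 head-to-head, −0.32 for 63 tail-to-tail and −0.38 for 18 without a coding partner. The 14 members that contain their whole sense gene had a median of 0.17, which was 0.0593 without WT replicate 2. Without WT replicate 1 these medians were 0.37, 0.06, 0.05, 0.12 and 0.44, so that all of them were then above 0. Members that share exon bases with the partner (226) and those that do not (91) had medians of −0.29 and −0.31. Those with under 5% of their words in other genes (108) had −0.35, and those with at least 50% (32) had −0.37. The 23 tested members whose start lay within 500 bases of the sense start had a median of −0.32, with 20 below 0. That is 87.0%, against 69.0% of all tested members and 51.9% of all genes. The groups did not overlap for 0 of the 23 higher and 6 lower in DKO (0 and 26.1%). The shares were 7.76 and 17.6% of all tested members and 19.8 and 18.8% of all genes. Leaving out single libraries was not done for these 23. A difference between these classes was not tested.

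**Figure D2:**
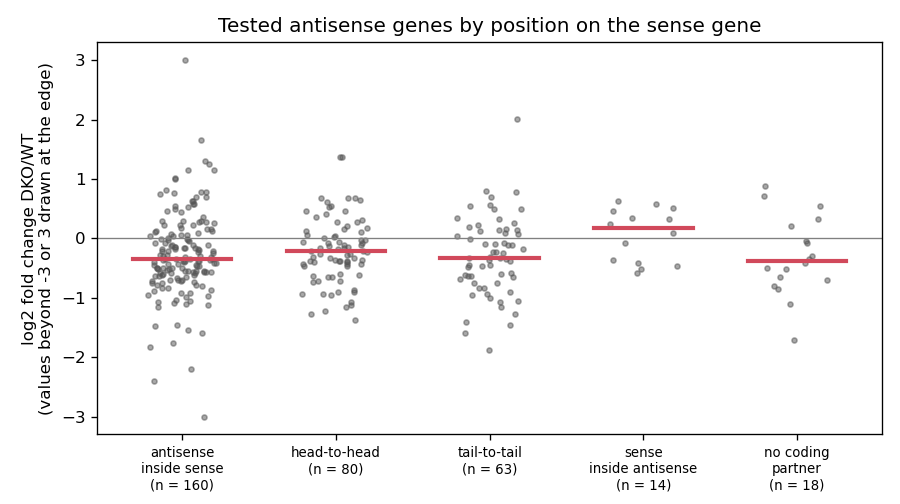
Each point is a tested antisense gene, placed by its position relative to the sense gene (columns) and its log2 fold change DKO/WT (vertical axis; values beyond −3 or 3 are drawn at the edge), and the red line is the class median. Medians lie between −0.38 and −0.22 in 4 classes and at 0.17 in the 14 genes that contain their sense gene, with points on both sides of 0 in every class.

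Among antisense genes with a mean of at least 1 CPM, those with the smallest unadjusted p by edgeR were lower in DKO in 6 cases and higher in 3. None passes the adjusted threshold, and the values are given as measured. The choice required no overlap between the groups and took at most 6 per direction. Separation of the groups was therefore a condition of the choice and not a result. 2900060B14Rik (ENSMUSG00000107722, chromosome 1, 118458652 to 118459267, minus strand) lies in an intron of Clasp1, which encodes a protein that stabilises microtubule ends. It had 121 and 164 counts in WT against 77 and 72 in DKO, or 8.73 and 14.2 against 4.55 and 3.34 CPM. The log2 fold change was −1.54 (SE 0.30, adjusted p = 0.139 by edgeR). Without WT replicate 1 it was −1.86 and passed the test (adjusted p = 0.00935), and without each of the other libraries adjusted p lay between 0.158 and 0.230. The same stretch of DNA holds, on the same strand, the small nuclear RNA gene Gm22710, to which 16.2% of its words also belong. Gm22710 had 535 and 735 counts in WT against 307 and 204 in DKO, a log2 fold change of −1.89 (SE 0.45, adjusted p = 0.430). Over all 81 tested small nuclear RNA genes the median was −1.64. The part of Gm22710 reads in the value of 2900060B14Rik was not tested. Clasp1 itself was at 32 and 19.7 (WT) against 24.4 and 27.1 CPM (DKO), with overlap and a log2 fold change of −0.01.

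Gm15564 (ENSMUSG00000086324, chromosome 16, 35966752 to 35983230, minus strand) had the highest level per length of all tested antisense genes, with a mean of 18.1 TPM. It meets Parp9, a gene of the ADP-ribosyltransferase family linked to interferon responses, tail-to-tail without shared exon bases. Counts were 933 and 1165 in WT and 715 and 599 in DKO, or 67.3 and 101 against 42.3 and 27.8 CPM. The log2 fold change was −1.27 (SE 0.28), with adjusted p = 0.276 by edgeR and 0.00103 by DESeq2. Leaving out single libraries gave −1.58 to −0.93. Parp9 had a log2 fold change of −0.01. Of the words of Gm15564, 3.92% lay in other genes, most of them (2.70%) in Lars2, a mitochondrial leucyl-tRNA synthetase gene. Lars2 was assigned 606605 to 1376325 counts per library, or 52611 to 81409 CPM. The 14 naive T cell markers together summed to only 3778 to 4563 CPM. Neither the origin of the Lars2 counts nor their part in the value of Gm15564 was tested.

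Gm20400 (ENSMUSG00000092500, chromosome 6, 142161493 to 142173796, plus strand) has its exons in introns of Slco1a6, an organic anion transporter gene. It was at 70.1 and 101 (WT) against 56.0 and 57.6 CPM (DKO), with a log2 fold change of −0.59 (SE 0.18, adjusted p = 0.389). Without WT replicate 1 this was −0.83 and passed the test (adjusted p = 0.0135), and without WT replicate 2 it was −0.29 (adjusted p = 0.375). Slco1a6 was nearly silent at 0.651 to 1.08 CPM, so that the antisense gene stood far above its sense partner per length, at 11.6 against 0.223 TPM.

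Gm37401 (ENSMUSG00000104208, chromosome 9, 108337089 to 108338273, minus strand), whose few own words are shown above, had 7.43 and 8.07 (WT) against 4.08 and 3.62 CPM (DKO). The log2 fold change was −1.01 (SE 0.25, adjusted p = 0.250), while Rhoa, at 174 to 212 CPM, had one of 0.07. With 92.7% of its sequence shared with Rhoa, its value depends on how reads were divided between them. Gm26586 (ENSMUSG00000097472, chromosome 8, 72137389 to 72140820, minus strand) runs through Tpm4, a tropomyosin gene of the actin cytoskeleton. It had 41 and 25 counts in WT against 8 and 22 in DKO (log2 fold change −1.75, SE 0.61, adjusted p = 0.484). Tpm4 was at 55.2 and 55.8 (WT) against 70.7 and 66.4 CPM (DKO), a log2 fold change of 0.31 (adjusted p = 0.603). BC018473 (ENSMUSG00000056032, chromosome 11, 116752167 to 116759373, plus strand), which has no coding partner, had 24 and 28 counts in WT and 12 in each DKO library (log2 fold change −1.71, SE 0.63, adjusted p = 0.518). The last 2 of these 3 members had few counts.

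Of the 3 members higher in DKO, 2 share no words with any other gene. Gm13546 (ENSMUSG00000086862, chromosome 2, 58164001 to 58177063, plus strand) has its exons in introns of Cytip, which encodes a partner of cytohesin that loosens leukocyte adhesion. It had 43 and 47 counts in WT against 125 and 154 in DKO, or 3.10 and 4.08 against 7.39 and 7.14 CPM. The DKO libraries were close together, and the log2 fold change was 1.02 (SE 0.27, adjusted p = 0.295). Leaving out single libraries gave 0.83 to 1.24. Cytip was at 204 and 211 (WT) against 218 and 217 CPM (DKO), a log2 fold change of 0.07. Gm20069 (ENSMUSG00000095174, chromosome 12, 102612680 to 102618516, plus strand) has its exons in introns of Itpk1, an inositol phosphate kinase gene. It had 31 and 17 counts in WT against 84 and 73 in DKO, a log2 fold change of 1.16 (SE 0.42, adjusted p = 0.506), while Itpk1 had −0.24 (adjusted p = 0.779). Per length it stood at the level of its partner, 0.689 against 0.664 TPM. Gm47766 (ENSMUSG00000112336, chromosome 12, 80259443 to 80260557, plus strand) overlaps the start of Actn1, an actin-crosslinking alpha-actinin gene, and shares 47.2% of its words with it. It had 9 and 12 counts in WT against 33 and 52 in DKO (log2 fold change 1.37, SE 0.58, adjusted p = 0.604).

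**Figure D3:**
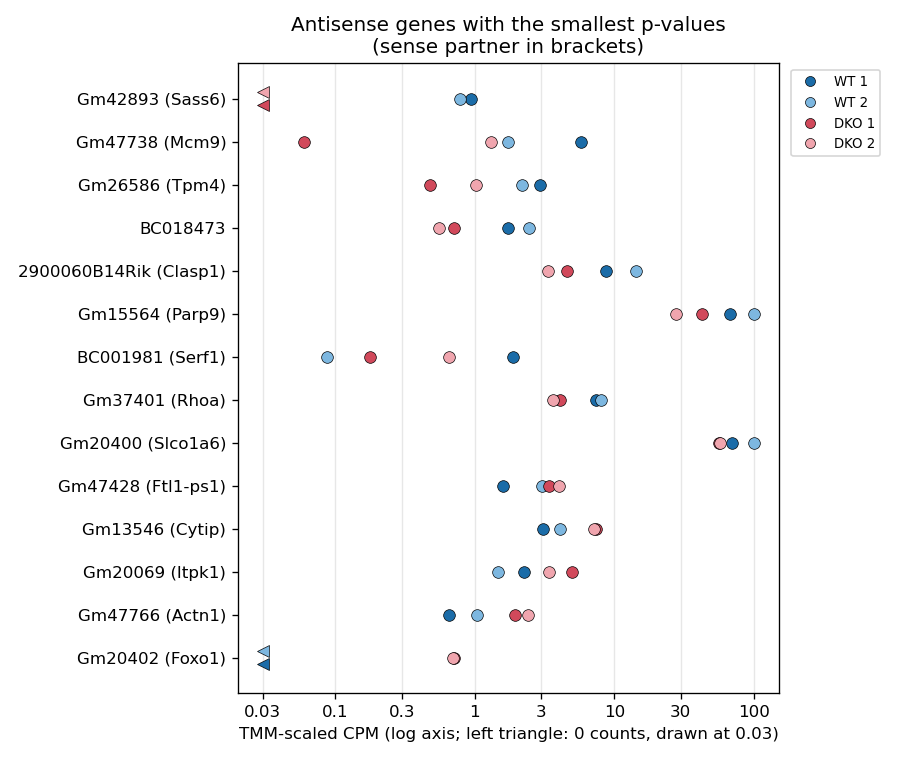
TMM-scaled CPM in each of the 4 libraries (horizontal, log axis) for 14 antisense genes, ordered by log2 fold change. They were chosen by the smallest p of the level, where no overlap between the groups was required, or of the antisense/sense ratio. Left triangles mark 0 counts. WT points (blue) lie right of DKO points (red) in Gm15564, at 67.3 and 101 against 42.3 and 27.8 CPM, and left of them in Gm13546, at 3.10 and 4.08 against 7.39 and 7.14 CPM, while BC001981 and Gm47738 spread widely within a genotype.

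The other members described here among the 10 most abundant per length had overlapping groups or few counts of their own, except Tug1, whose libraries were separated by a small step. Tug1 (ENSMUSG00000056579, chromosome 11, 3639785 to 3649673, minus strand), a long non-coding RNA that starts head-to-head with the chromatin gene Morc2a, was at 49.5 and 50 (WT) against 46.8 and 47.5 CPM (DKO). Its log2 fold change was −0.08 (SE 0.13) and that of Morc2a was 0.02 (SE 0.16). Snhg9 had 27 and 44 counts in WT against 24 and 28 in DKO (log2 fold change −1.07, SE 0.52, adjusted p = 0.648). Snora78, the small nucleolar RNA within it, had 243 and 451 counts in WT against 238 and 133 in DKO (−1.49, adjusted p = 0.708). Over all 196 tested small nucleolar RNA genes the median was −1.64. No 31-base word of Snhg9 lay in Snora78, and the part of Snora78 reads in the value of Snhg9 was not tested further. Rps2 had a log2 fold change of −0.43 (adjusted p = 0.662). Gm11175, of which 97.0% of words lie in the AP-1 gene Jund, and Gm29084, of which 93.8% lie in Noct, a circadian phosphatase gene, had log2 fold changes of −0.38 (SE 0.35) and 0.08 (SE 0.64) with overlapping groups. Gm29084 is placed opposite Pard3b, at 0.0144 TPM, yet nearly all its words are those of Noct, on another chromosome, so its reads cannot be assigned to it. Gm11695, opposite the transporter gene Slc16a5, had −0.38 (SE 0.31).

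Antisense genes also overlap regulators of the naive T cell state. Of 80 T cell genes listed for this purpose, 22 had an annotated antisense gene, with 23 members in all, of which 13 were tested. Their median log2 fold change was −0.28, with 7 below 0, close to the −0.31 of all members. None was called by edgeR or DESeq2, where 0.124 and 1.46% of all genes were called. At an unadjusted p under 0.05, edgeR and DESeq2 each gave 1 of the 13 (7.69%), Gm20402 opposite Foxo1, higher in DKO, against 3.82% of all genes higher by edgeR. By limma on log2(TPM + 1) 0 were called, and 2 of the 13 (15.4%), Gm20402 and D630008O14Rik, were higher at that p, against 17.3% of all genes higher and 1.83% lower. Gm20402 had 0 counts in both WT libraries and passed the count filter only through its DKO libraries. Its direction was therefore a condition of the filter and not a result.

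Antisense genes that overlap regulators of the naive state were at low levels, between 0.260 and 7.72 CPM in the 8 best-covered ones. A630014C17Rik starts head-to-head with Tcf7, a transcription factor of naive and memory T cells, and had 59 and 53 counts in WT against 39 and 65 in DKO. Its CPM separated the groups, at 4.25 and 4.6 against 2.31 and 3.02 (log2 fold change −0.73, SE 0.34, adjusted p = 0.647). Per length it stood at 0.227% of Tcf7, the lowest antisense/sense ratio among the named pairs. Tcf7 was at 911 and 1201 (WT) against 1023 and 914 CPM (DKO), with overlap.

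D630008O14Rik lies on the other strand of Bcl2, which encodes a survival protein of resting lymphocytes, and shares 24.3% of its words with it. It had 43 and 16 counts in WT against 62 and 88 in DKO, or 3.10 and 1.39 against 3.67 and 4.08 CPM, a log2 fold change of 0.77 (SE 0.44, adjusted p = 0.710). Bcl2 was at 70.5 and 68.7 (WT) against 92.7 and 99.7 CPM (DKO), a log2 fold change of 0.47 (SE 0.13, adjusted p = 0.313). Both genes of this pair were therefore higher in both DKO libraries, and neither passed the test. The value of D630008O14Rik depended on the WT libraries: without WT replicate 2 the log2 fold change was 0.34, and without WT replicate 1 it was 1.48.

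Gm12000, within an intron of the lymphoid transcription factor gene Ikzf1, shares no words with any other gene and was at 6.63 and 3.82 (WT) against 2.43 and 4.73 CPM (DKO), a log2 fold change of −0.54 (SE 0.41). Gm43352, over the start of Lef1, a transcription factor of naive T cells, has 38.8% of its words in Lef1. It was at 5.41 and 7.72 against 4.26 and 6.49 CPM (−0.28, SE 0.31). Gm37469, within an intron of Cd247, the zeta chain of the T cell receptor complex, was at 4.76 and 0.867 against 2.72 and 1.76 CPM (−0.35, SE 0.72). In all 3 pairs the groups of the antisense gene overlapped.

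Gm27240, within an intron of the transcription factor gene Ets1, was at 3.82 and 1.21 (WT) against 1.48 and 2.60 CPM (DKO), a log2 fold change of −0.31 (SE 0.60). Gm44876, over the interleukin-4 receptor gene Il4ra, was at 2.74 and 0.781 against 0.591 and 1.58 CPM (−0.69, SE 0.77), and 84.5% of its words lie in Il4ra. Bach2os, within Bach2, a repressor of effector differentiation, has 21.9% of its words in Bach2. It was at 2.31 and 0.260 against 1.30 and 1.39 CPM (0.04, SE 0.86). WT replicate 1 held the highest value in Gm12000, Gm37469, Gm27240, Gm44876 and Bach2os, and WT replicate 2 the lowest in Gm37469, Gm27240, Bach2os and D630008O14Rik.

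**Figure D4:**
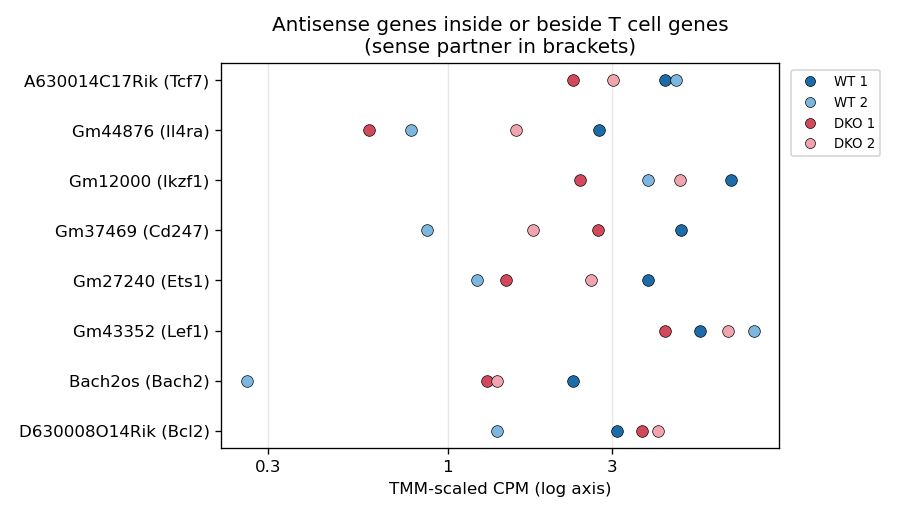
TMM-scaled CPM in each library (horizontal, log axis) for the 8 best-covered antisense genes that overlap T cell genes, with the sense partner in brackets. WT (blue) and DKO (red) points mix in 6 genes and separate in A630014C17Rik, where DKO lies lower at 2.31 and 3.02 CPM, and in D630008O14Rik, where DKO lies higher at 3.67 and 4.08 CPM.

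The sense partners were compared in the same fit. Of 256 distinct partners tested, 0 were called by edgeR (lowest adjusted p 0.139, Ftl1-ps1), where 0.124% of all genes were called. At an unadjusted p under 0.05 by edgeR, 13 were higher (5.08%) and 6 lower (2.34%) in DKO, against 3.82 and 4.35% of all genes. The shares of protein-coding genes, the like set, were 4.39 and 2.66%, close to those of the partners. DESeq2 called 3 (1.17%, against 1.46% of all genes). These were Serf1, Ftl1-ps1 and Tcf20, the last named after its value was seen (log2 fold change −0.59, adjusted p = 0.00657 by DESeq2). Serf1, without counts in WT, passed the count filter only through its DKO libraries. The median log2 fold change of the 256 partners was 0.02, as over all protein-coding genes. Leaving out single libraries gave 0.04 to 0.07. The partners are protein-coding, as are 10733 of the 12863 genes scaled by TMM, so the scaling itself holds such a median near 0. Whether the partners shifted with the antisense genes between libraries was therefore not tested.

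In 261 pairs both genes could be tested. The antisense gene was nearly always the weaker one: its TPM had a median of 9.37% of the sense gene's (interquartile range 3.65 to 27.5%), with medians of 0.0954 and 1.05 TPM. In 26 pairs the antisense gene was above the sense gene, and in 12 it was under 1% of it. Across pairs the mean levels had a Spearman correlation of 0.33 (n = 261), which is a description over genes that share libraries and, in part, sequence. The fold changes of the genes in a pair had one of 0.12 (n = 261), 0.09 in pairs with shared exon bases (n = 192) and 0.26 in pairs without (n = 69). All fold changes come from the same 4 libraries.

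The antisense/sense ratio within each library was compared by limma on the log2 ratio of CPM + 0.5. In 0 of the 261 pairs (0.0%) did it pass the test, and the lowest adjusted p was 0.999. At an unadjusted p under 0.05, 6 pairs (2.3%) had a higher and 6 (2.3%) a lower ratio in DKO. The median change of the log2 ratio was −0.16, with 173 pairs lower in DKO. It was 0.15 without WT replicate 1 and −0.49 without WT replicate 2. The ratio deviated from each pair's mean by a median of 0.41 and −0.25 in WT and −0.21 and 0.05 in DKO, the order seen for the antisense levels. Pairs without shared exon bases (69) and pairs whose antisense gene had under 5% shared words (84) had median changes of −0.16 and −0.20. Without WT replicate 2, 6 pairs passed, and without WT replicate 1 only 2900060B14Rik with Clasp1 did (adjusted p = 0.0493). In these comparisons 1 genotype has a single library, whose spread is assumed to be that of the other.

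**Figure D5:**
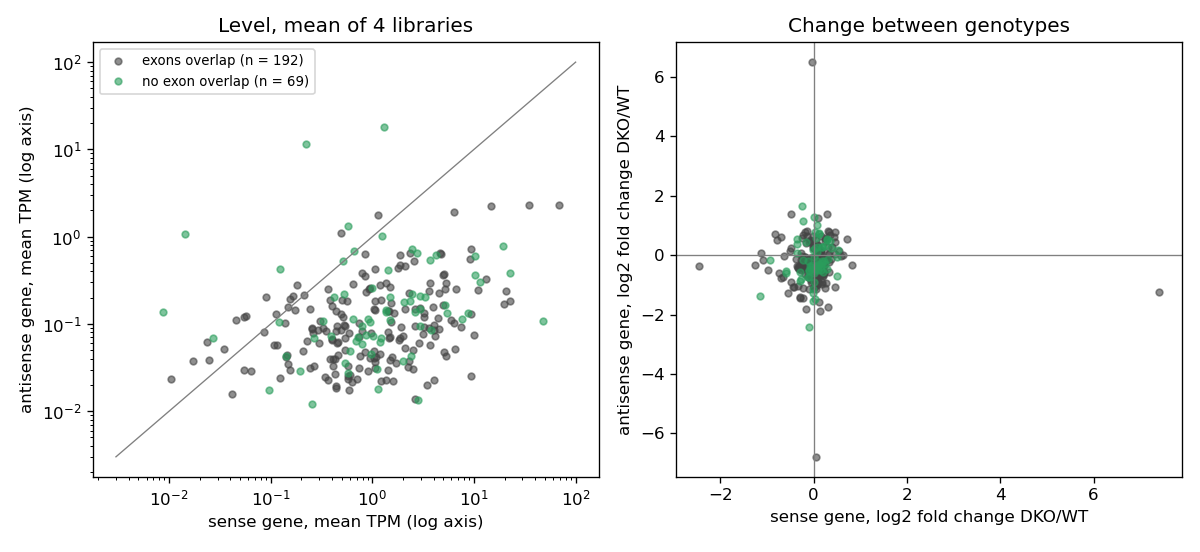
Left, mean TPM of the antisense gene against that of its sense gene over 4 libraries (both log axes; the line marks equal levels) for 261 pairs. Right, their log2 fold changes DKO/WT against each other; grey points share exon bases (n = 192) and green points do not (n = 69). Most points lie below the line of equal levels (26 above it), and the fold changes form no visible line (Spearman 0.12).

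The pairs with the smallest p for the ratio mostly had few antisense counts. Gm20402 had 0 counts in both WT libraries and 12 and 15 in DKO, while Foxo1 was at 166 to 181 CPM throughout. Against a floor of 3 counts in each WT library, Gm20402 was at least 2.97-fold higher in DKO. Gm42893 had 13 and 9 counts in WT and 0 in both DKO libraries, at least 5.55-fold lower against the same floor in each DKO library, while Sass6 was at 3.99 to 7.43 CPM. For these 2 members, nearly all of the sequence is shared with the sense gene, as the stretches printed above show, and adjusted p for the level was 0.389 and 0.295. Each passed the count filter only through the group in which it had counts, and each pair was chosen by its p. The separation of the groups and its direction were therefore conditions of the choice and not a result.

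BC001981 (26 and 1 counts in WT, 3 and 14 in DKO) overlaps the start of Serf1, a small gene with 0 counts in WT and 50 in DKO, at least 5.50-fold higher against 3 counts in each WT library. Serf1 too passed the count filter only through its DKO libraries, so this direction was a condition of the filter and not a result. The log2 ratio of BC001981 to Serf1 changed by −2.28 (SE 0.74), and the level of Serf1 had an adjusted p of 0.197 by edgeR. With so few counts, the size of this ratio change depends on the 0.5 CPM added to both genes, which its SE does not reflect. Gm47738, within Mcm9, a helicase gene, had 80 and 20 counts in WT against 1 and 28 in DKO, and 99.9% of its words lie in other genes, most of them (77.5%) in the lincRNA Gm48764. Without DKO replicate 2 it passed the test of levels (log2 fold change −5.78, adjusted p = 0.0257), whereas with all libraries the value was −2.41 (SE 1.18, adjusted p = 0.692). Gm47428, with 47.4% of its words in Ftl1-ps1, overlaps that gene, which is annotated as protein-coding although its symbol is that of a ferritin light chain pseudogene. It was at 1.59 and 3.04 (WT) against 3.43 and 4.04 CPM (DKO), while Ftl1-ps1 was at 33.2 and 28.1 against 18.4 and 16.4 CPM (−0.82, SE 0.16, adjusted p = 0.139). The log2 ratio of that pair was higher in DKO by 1.43 (SE 0.54), adjusted p = 0.999. Gm26586 with Tpm4, described above, had the smallest unadjusted p of all ratios (0.0110) with a change of −1.62 (SE 0.51).

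The named members with the highest level per length relative to an expressed sense partner ranged from above that partner to 33.0% of it. Gm15564, with 2.70% of its words in Lars2, stood at 18.1 TPM against 1.30 TPM for Parp9. Gm11695, with 20.2% of its words in Slc16a5, stood at 1.76 against 1.14 TPM for that gene. 1810041H14Rik, head-to-head with the ubiquitin-associated gene Ubac2, reached 82.6% of it, with 3.53 and 3.38 (WT) against 2.25 and 1.95 CPM (DKO), a log2 fold change of −0.72 (SE 0.39, adjusted p = 0.691). 9130221H12Rik, over the glycogen synthase kinase gene Gsk3a, reached 40.3%, with 48.6% of its words in Gsk3a. Rab10os, tail-to-tail with the vesicle-transport GTPase gene Rab10, reached 33.0%, with 1.71% of its words in Rab10. Where words are shared, these levels depend on how reads were divided between the genes. The log2 fold changes of 9130221H12Rik and Rab10os were −0.17 (SE 0.23) and −0.24 (SE 0.29), and those of Gsk3a and Rab10 were −0.18 and 0.08.

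The genes that sense double-stranded RNA or remove antisense RNA were read from a list of 42. Of 39 tested, 0 were called by edgeR or DESeq2 and 0 had an unadjusted p under 0.05 by edgeR, against 0.124% called and 3.82 and 4.35% at that p among all genes. By limma on log2 TPM 0 were called. The median log2 fold change was 0.00, within a range of −0.62 to 0.29. Adar, which edits adenosines in double-stranded RNA, averaged 69.2 (WT) and 69.3 CPM (DKO), a log2 fold change of 0.00 (SE 0.14). The sensor genes Ifih1 and Eif2ak2 had −0.22 (SE 0.18) and 0.01 (SE 0.19), and Oasl2, an interferon-induced gene, had the lowest value, −0.62 (SE 0.41). Among exosome genes, Exosc10 had −0.13 (SE 0.13) and the nuclease Dis3 0.21 (SE 0.19). Mtrex, the helicase that feeds nuclear RNA to the exosome, had 0.01 (SE 0.15), and Dcp2, the decapping enzyme of mRNA decay, had the highest value, 0.29 (SE 0.16, adjusted p = 0.702). The groups did not overlap for 6 of the 39 higher and 7 lower in DKO (15.4 and 17.9%), against 19.8 and 18.8% of all genes.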

How the data were processed

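The members and gene lists were chosen with earlier results of these data known. The authors quantified RNA of 2 WT and 2 DKO libraries with kallisto and name the builds mm10 and GRCm38, per the submitters' processing notes. Its version and strand setting, and the annotation, were not given in the sources used here. Estimated counts, deposited per transcript, need not be whole and divide reads among similar transcripts. For TPM the authors divided by effective length and depth, per the file headers. Effective lengths in bases, also deposited, entered only an alternative.

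Of 126782 transcripts, 125182 (98.7%) joined GENCODE M21 by identifier without version. The others held 0.822 to 0.852% of the counts and were left out. Counts were summed to genes, rounded, filtered with filterByExpr, scaled by TMM and tested with edgeR 4.0.16 (robust quasi-likelihood F test, Benjamini-Hochberg at 0.05) in R 4.3.3. Log2 fold changes are DKO minus WT. For levels, the standard error (SE) is the size of the change divided by the square root of the edgeR F value, so it includes the spread between libraries. The common biological coefficient of variation was 0.220. The partner of a member was the opposite-strand protein-coding gene with the longest overlap. Ratios of CPM + 0.5 were tested with limma 3.58.1 over pairs. Titles and genotype labels gave the groups. Nothing states that each library came from a single animal beyond the mention of pairs of mice, so p-values measure the spread between these libraries. Depth was 13889894 to 17827631 counts. The floors cover counting error only, and no molecular identifiers were used. Functions were checked on simulated data.

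Genes named are any called member, the 10 with the highest TPM, and up to 6 per direction with the smallest unadjusted p under 0.05, at least 1 CPM and no overlap. The rule adds up to 8 with a T cell partner, 6 with the smallest ratio p, 5 with the highest TPM ratio (sense gene at 1 TPM or more), the partners, and Btg1 and Btg2, giving 31 members and 30 partners. A named pair and a gene of the surveillance list are not reported here. Alternatives were DESeq2 1.42.0, limma on log2(TPM + 0.1) or log2(TPM + 1), other scalings and filters, a replicate block and leaving out each library. Python 3.11.15 was used for sequences and summaries.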

Additional observations from a re-analysis of the deposited data

How the results depend on the processing

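Counts of called members, 0 higher and 0 lower, became 1 and 2 with scaling to total counts, and 2 higher with scaling to polymerase III transcripts. Called lower were 2 with DESeq2, 5 with no filter, and 0 to 2 with each library left out in turn. The median of members was 0.0292 with total counts, 0.60 with polymerase III transcripts, 0.0601 on log2(TPM + 0.1), 0.00784 on log2(TPM + 1), −0.17 with no filter, and −0.59 to 0.37 with each library left out. Under total counts and polymerase III scaling the median of all genes moved to 0.33 and 0.90, by construction of the scale. The gap of members to all genes, −0.29, was −0.59 to 0.34 with each library left out, −0.0765 on log2(TPM + 1) and −0.18 with no filter. The partner median of 0.02 became 0.36 with total counts, −0.0158 with TMM on protein-coding genes, 0.95 with polymerase III transcripts, 0.0625 with no filter, 0.35 and 0.17 on the TPM scales (+ 0.1, + 1), and 0.0424 to 0.0727 with each library left out. The share difference of 0.00193 percentage points was −0.0229 to 0.0268 with each library left out, −0.0532 of coding plus antisense counts and −0.000286 of TPM. Pairs with a changed ratio numbered 0 to 6, and the ratio median lay between −0.49 and 0.15, with each library left out.

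Replicate numbers are not stated to mark pairs, and deviations of same-numbered libraries correlated at −0.347 over all genes and −0.195 over members. With the number as a replicate block, 1 member was called lower (2900060B14Rik, adjusted p = 0.00385) and 53 and 90 of all genes higher and lower, against 7 and 9. The replicate block with crossed numbers, chosen after seeing the data, called 6 members lower, 136 and 384 of all genes, and 4 pairs. All genes called were 55 and 133 by DESeq2, 194 and 66 with total counts, 472 and 22 with polymerase III transcripts and 141 and 254 with no filter. For 91 single results, of 1169 alternative values (levels relative to the median of all genes), 47 passed the threshold newly and 87, in 40 results, had the opposite sign, 49 of them with a library left out. Among these, without WT replicate 1, were BC001981 (−1.21 to 2.16), Gm37469 (−0.34 to 1.33) and Gm27240 (−0.29 to 0.73), and, without WT replicate 2, Bach2os (0.06 to −0.76). In 4 of the 87 the value with all libraries lay more than 1 SE from 0: Gm11175 0.18 and the ratio of Gm44876 0.0409 without WT replicate 1 (down to −0.77 and −1.30 without WT replicate 2), Slc16a5 0.0611 without DKO replicate 2 (−0.56 without DKO replicate 1), and Bach2 −0.14 with an effective-length offset. The cause was not tested. A median CPM of 1.17 per tested member limits precision.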

Other observations

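The 14 tested antisense genes that contain their whole sense gene were the one position class with a median log2 fold change above 0 (0.17). Without WT replicate 2 it was 0.0593, and without WT replicate 1 it was 0.44, when the medians of all 5 classes were above 0. The libraries did not overlap for 4 of them higher (28.6%) and 1 lower (7.14%) in DKO, against 19.8 and 18.8% of all genes, and none was called (lowest adjusted p 0.787 by edgeR). The 4 were Brip1os, E230032D23Rik, Gm16279 and Gm20633, and the 1 was Gm16845, all named after their values were seen. Brip1os, which spans Ints2, a subunit gene of the Integrator complex that cleaves small nuclear RNA, was the best covered of them, at 11.2 and 12.5 (WT) against 13.5 and 14.6 CPM (DKO), a log2 fold change of 0.25 (SE 0.18). E430024P14Rik, around the T cell activation gene Tagap, was at 8.08 and 3.64 against 6.45 and 8.40 CPM, and its groups overlapped. Gm15441, around Txnip, a regulator of glucose uptake, was at 0.649 and 1.21 against 1.07 and 1.48 CPM, also with overlap. Of 3 members around replication-dependent histone genes, Gm20632 and Gm20633 had values of 0.51 (SE 0.64) and 0.63 (SE 0.79), and Gm20628 had −0.41 (SE 0.38). The 12 tested partners of this class had a median of 0.06, and the antisense/sense ratio a median change of −0.09.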
